A study of Homo sapiens with 23 samples.

Results

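The genes described here are the cGAS-STING and RIG-I nucleic acid sensing pathways, taken as 10 genes: CGAS, STING1 and TREX1 of the DNA-sensing arm, RIGI, IFIH1, DDX60 and MAVS of the RNA-sensing arm, and TBK1, IRF3 and IRF7, which both arms use. The members were listed by symbol, with earlier results of these data known, and each symbol was matched to its NCBI Gene ID. All 10 were found among the 21658 genes of the deposited table, none was lost to a filter, and each had a value in all 23 libraries.

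RNA-seq was carried out on 4 human ovarian cancer cell lines, Kuramochi, OVSAHO, OV-90 and EFO-21. Each line was measured as the parental line and as a derived line resistant to prexasertib, a CHK1 inhibitor. Parental OV-90 had 2 libraries, and the other 7 groups (OV-90 resistant; Kuramochi, OVSAHO and EFO-21 parental and resistant) had 3 each. The resistant lines had been made by stepwise escalation of the drug over a long time. The labels give neither the final concentration nor whether drug was present at harvest, and each resistant group is a single derived line, so resistance and the history of that derivation cannot be told apart. The libraries are labelled as biological replicates, and p-values measure the spread between them.

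In cells, cGAS binds DNA in the cytosol and makes cyclic GMP-AMP, which activates STING at the endoplasmic reticulum, while TREX1 is an exonuclease that degrades cytosolic DNA. RIG-I, the product of RIGI, and MDA5, the product of IFIH1, are helicases that bind viral or misplaced RNA and signal through MAVS on mitochondria, and DDX60 is a related helicase reported to act with them. Both arms recruit the kinase TBK1, which phosphorylates IRF3 and IRF7, transcription factors that switch on type I interferon genes, and interferon in turn raises several of the sensors.

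The values are log2 gene values, quantile normalized over the libraries, so a difference of 1 is 2-fold. They were not read as per-length abundances, so levels are compared between lines and not between genes. Over all genes, the median SD within a group ran from 0.11 to 0.15 in 6 groups and was 0.22 in parental Kuramochi and 0.26 in parental OV-90. The 2 parental OV-90 libraries correlated at 0.952 across genes, and the second of them correlated at 0.949 with a resistant OV-90 library, so results in OV-90 rest on the least alike replicates. KRT8 and KRT18, epithelial keratins, had group means of at least 8.77 in all 8 groups. PAX8, WT1, MUC16 and MSLN, markers of ovarian serous carcinoma, were near the bottom of the range in parental OV-90, with means between -0.05 and 2.10. OV-90 thus did not carry these markers. Of them, WT1 was also low in parental EFO-21 (1.03) and MUC16 in parental Kuramochi (2.48). LYZ at 12.06 and LUM at 12.76 were high in parental OV-90.

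DDX60 had a positive change in all 4 lines. It rose in resistant Kuramochi, OVSAHO and EFO-21 and, averaged over the 4 lines, was 2.13-fold higher in resistant libraries. IFIH1 rose 2.14-fold in resistant Kuramochi and 2.17-fold in resistant EFO-21, and fell to 0.427 of the parental level in resistant OVSAHO. RIGI rose 2.08-fold in EFO-21, STING1 fell to 0.380 of the parental level in OV-90, and CGAS fell by 1.37 on the log2 scale in Kuramochi, where 1 resistant library was at the bottom of the range. A member is said to have risen or fallen where the limma adjusted p, over all 21658 genes, was under 0.05 and the change was at least 2-fold.

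The number of members past that threshold was set against the share of all genes that passed it. In Kuramochi 3 of 10 members passed, against 22.5% of all genes (11.8% higher and 10.6% lower in resistant libraries). In OVSAHO 2 of 10 passed, against 7.76% of all genes (3.93% higher, 3.83% lower). In OV-90 1 of 10 passed, against 16.1% (9.5% higher, 6.56% lower), and in EFO-21 3 of 10 passed, against 14.3% (7.11% higher, 7.15% lower). With the adjusted p alone, 5 members passed in Kuramochi, 5 in OVSAHO, 3 in OV-90 and all 10 in EFO-21, while the shares of all genes were 46.9%, 33.3%, 36% and 48.4%. These counts are of fits to each line alone. With all 23 libraries in one fit, 5 members passed in Kuramochi, 4 in OVSAHO, 6 in OV-90 and 8 in EFO-21, and in OV-90 the count was 0 without library 13, 14 or 15 and 6 without library 3. The shares of all genes were not taken for the single fit or with libraries left out. Shares of 10 genes move in steps of 10%, and in the fits to each line alone the members' shares in Kuramochi and OV-90 lay near those of all genes. The median change of the members, on the log2 scale, was 0.24 in Kuramochi, -0.15 in OVSAHO, 0.04 in OV-90 and 0.65 in EFO-21, while the median over all genes lay between -0.06 and 0.01 in each line.

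**Figure D1:**
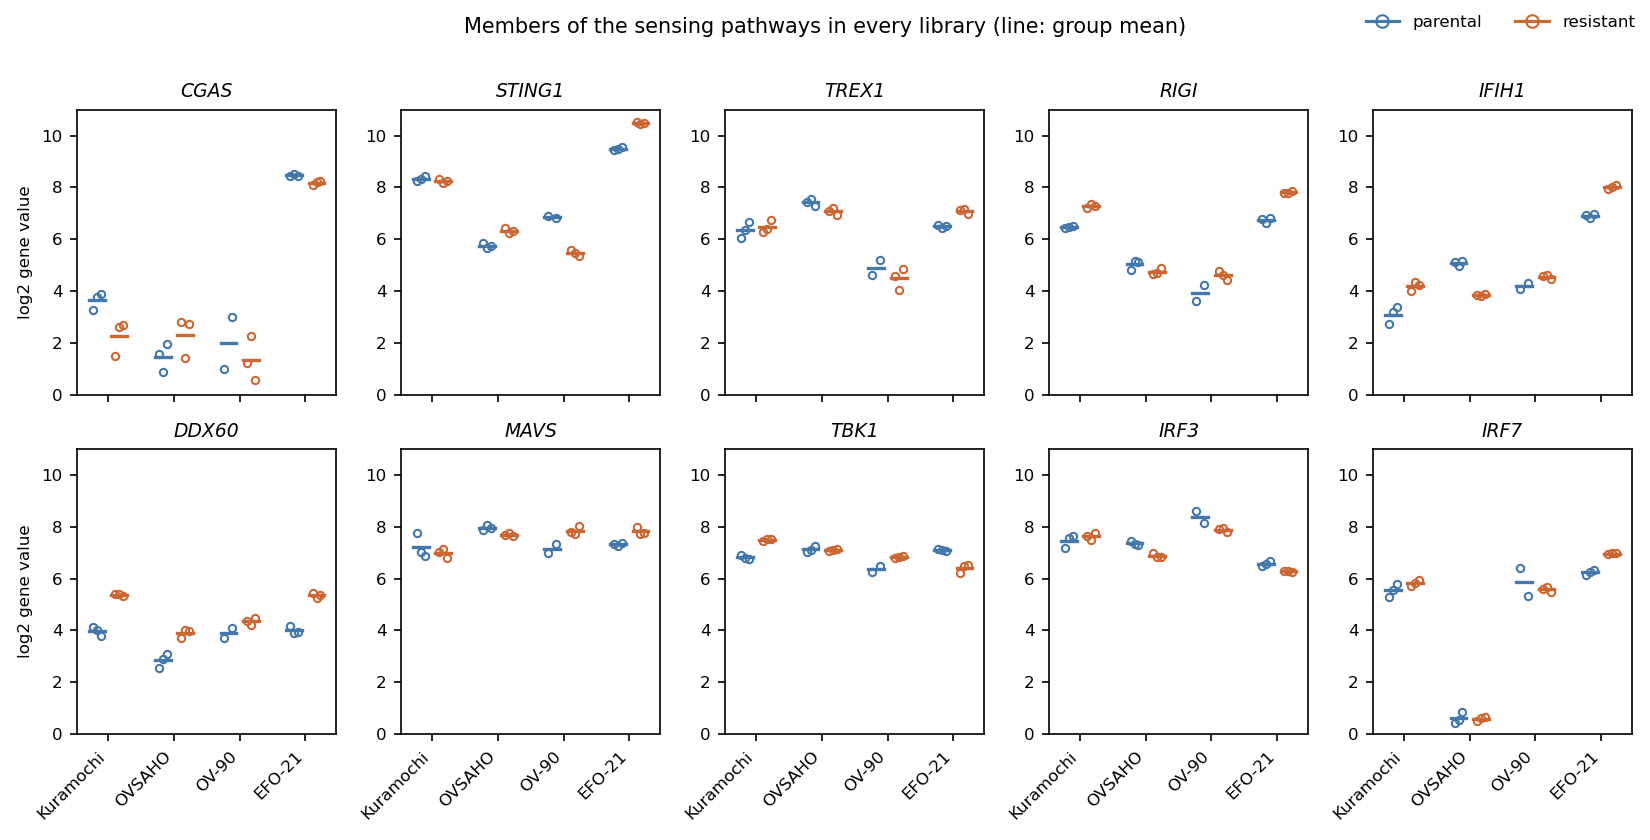
Log2 value of each of the 10 members in each of the 23 libraries, by cell line, with parental libraries in blue, resistant libraries in orange and a short line at each group mean. CGAS in EFO-21 (8.08 to 8.51) stands far above the other lines, IRF7 in OVSAHO (0.41 to 0.84) far below, and DDX60 is higher in every resistant library than in the parental libraries of its line.

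The promoters of the interferon-inducible sensors are shown for their matches to GAAANNGAAA or to the more closely spaced GAAANGAAA. The first has the letters of the interferon response element, to which IRF and STAT-containing complexes bind. RefSeq promoter windows (GRCh38.p14, 250 bases before to 50 after the start) were at hand for 6 of the 10 members, RIGI, IFIH1, DDX60, MAVS, TBK1 and TREX1, and not for CGAS, STING1, IRF3 and IRF7. Each window was searched on both strands for GAAANNGAAA and GAAANGAAA, matches being allowed to overlap. IFIH1 matched GAAANNGAAA alone, RIGI matched GAAANGAAA alone and DDX60 matched both, while MAVS, TBK1 and TREX1 matched neither. Among 35116 windows of 27305 genes, 3.57% held the first motif, 3.12% the second and 6.4% either. Each sequence below is the strand of the gene, 5′ to 3′, and capitals mark the matches. It was placed in GRCh37 by a single exact match. RIGI is given as the 250 bases before its start (chr9:32526195-32526444, minus strand), with 1 match that begins 203 bases upstream. IFIH1 is given likewise (chr2:163175195-163175444, minus strand), with overlapping matches on the opposite strand in a run that begins 159 bases upstream and a match on the gene's strand 21 bases upstream. DDX60 is given as stretches of 30 bases around its matches, which begin 88 and 58 bases upstream (chr4:169239972-169240001 and chr4:169239940-169239969, minus strand). Other annotated DDX60 transcripts start farther upstream, so these bases lie in a first exon of those transcripts.
RIGI: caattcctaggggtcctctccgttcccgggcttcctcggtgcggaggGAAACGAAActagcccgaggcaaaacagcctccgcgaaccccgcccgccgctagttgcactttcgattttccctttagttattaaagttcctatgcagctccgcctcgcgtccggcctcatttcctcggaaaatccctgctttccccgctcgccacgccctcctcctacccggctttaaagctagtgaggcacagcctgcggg
IFIH1: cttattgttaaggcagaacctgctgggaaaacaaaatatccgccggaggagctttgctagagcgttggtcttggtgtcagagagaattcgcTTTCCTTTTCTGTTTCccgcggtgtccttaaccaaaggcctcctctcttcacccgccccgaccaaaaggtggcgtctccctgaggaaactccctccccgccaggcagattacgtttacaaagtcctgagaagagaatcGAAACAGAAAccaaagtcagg
DDX60, far stretch: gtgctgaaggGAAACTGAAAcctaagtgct
DDX60, near stretch: tgagaggaGAAAGGAAACCGAAActcccgc

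CGAS (NCBI Gene ID 115004, chr6:74123238-74162020, minus strand, GRCh37), the cytosolic DNA sensor, had the widest spread between parental lines of the 10 members. Its mean was 8.46 in parental EFO-21, 3.65 in Kuramochi, 2.01 in OV-90 and 1.46 in OVSAHO. EFO-21 stood 6.999 above OVSAHO on the log2 scale, which is a rough value because 2 of 3 parental OVSAHO libraries were at the bottom of the range, and the order held between EFO-21 and Kuramochi and between Kuramochi and OV-90 (limma adjusted p = 7.44e-06 and 0.0165), while OV-90 and OVSAHO did not differ beyond their spread (adjusted p = 0.366). In OVSAHO and OV-90 libraries CGAS was often among the lowest 10% of values of the library, in 3 of 6 and 3 of 5 libraries, as it was in resistant Kuramochi library 16 (1.51).

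In Kuramochi, CGAS was 3.29, 3.78 and 3.87 in parental and 1.51, 2.61 and 2.70 in resistant libraries. Every resistant library was below every parental one, with a change of -1.37 ± 0.38 (SE, 3 against 3 libraries, limma adjusted p = 0.0257). The call was lost when library 5, 6 or 16 was left out, where the change was -1.30 (adjusted p = 0.0750), -1.26 (adjusted p = 0.0778) and -0.99 (under 2-fold). In cultures read in bulk, fewer cells that express a gene and less RNA per cell cannot be told apart.

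In EFO-21, CGAS was 8.43, 8.51 and 8.44 in parental and 8.08, 8.19 and 8.23 in resistant libraries, a change of -0.29 ± 0.05 (SE) that passed the adjusted p (0.00458) but not the 2-fold threshold. With all 23 libraries in one fit this change did not pass (adjusted p = 0.686). In OVSAHO it was 1.56, 0.86 and 1.95 against 2.80, 1.42 and 2.73, and in OV-90 0.998 and 3.02 against 1.23, 2.25 and 0.55. The groups overlapped in both lines and the changes of 0.86 ± 0.47 and -0.66 ± 0.79 (SE) did not pass (adjusted p = 0.215 and 0.530). The exons of CGAS overlap those of DDX43 on the opposite strand, and a same-strand protein-coding model overlaps RIGI, same-strand and opposite-strand non-coding models overlap TBK1, and whether reads were counted by strand is not given in the sources used here.

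STING1 (Gene ID 340061, chr5:138855118-138862520, minus strand), the adaptor that cyclic GMP-AMP activates, had parental means in the same order of lines as CGAS. For CGAS the order of OV-90 and OVSAHO was not resolved. The means were 9.49 in EFO-21, 8.33 in Kuramochi, 6.86 in OV-90 and 5.75 in OVSAHO, and each neighbour in that order differed (adjusted p between 3.56e-07 and 2.49e-06). EFO-21 was 13.4-fold above OVSAHO.

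With resistance, STING1 moved in opposite directions in the lines. In OV-90 it was 6.90 and 6.82 in parental and 5.59, 5.45 and 5.36 in resistant libraries. In EFO-21 it was 9.44, 9.48 and 9.55 against 10.52, 10.47 and 10.48. In both lines the groups were far apart. The fall in OV-90 was -1.40 ± 0.13 (SE, 2 against 3 libraries, limma adjusted p = 0.00920), and the change in EFO-21 was 0.9985 ± 0.0361 (SE, 3 against 3, adjusted p = 2.38e-05), a 1.998-fold rise that lay just under the 2-fold threshold. The OV-90 fall kept its size (-1.34 to -1.46) but not its call when resistant library 13, 14 or 15 was left out, with adjusted p between 0.0548 and 0.0589. In OVSAHO STING1 was 5.85, 5.65 and 5.73 against 6.44, 6.23 and 6.31, again without overlap (0.58 ± 0.10, adjusted p = 0.00678, under 2-fold). In Kuramochi it was 8.24, 8.32 and 8.44 against 8.32, 8.16 and 8.27, and the groups overlapped (-0.08 ± 0.08, adjusted p = 0.428). STING1 had the widest gap between lines in its change, 2.40 on the log2 scale between EFO-21 and OV-90 (limma F test adjusted p = 2.33e-11), and each of the 6 pairs of lines differed (adjusted p of 0.00603 or lower).

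TREX1 (Gene ID 11277, chr3:48507210-48509044, plus strand), the exonuclease that clears cytosolic DNA, was highest in parental OVSAHO (mean 7.42), the line with the lowest STING1. It was 6.51 in EFO-21, 6.36 in Kuramochi and 4.90 in OV-90, where EFO-21 and Kuramochi did not differ beyond their spread (adjusted p = 0.487). No line reached the 2-fold threshold with resistance. In EFO-21 TREX1 was 6.57, 6.45 and 6.51 in parental and 7.12, 7.16 and 6.99 in resistant libraries, so the groups did not overlap (0.58 ± 0.07, adjusted p = 0.00113). In the other lines the changes ran from -0.41 to 0.11 and did not pass, with adjusted p of 0.0516 in OVSAHO and above that in Kuramochi and OV-90. The OVSAHO change passed with a filter on low values and without library 9 (adjusted p = 0.0365 and 0.0380). TREX1 lies within exons of ATRIP on the same strand, so reads of the 2 genes may have been shared in counting.

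RIGI (Gene ID 23586, chr9:32455300-32526206, minus strand), the helicase that senses short RNA with free phosphate ends, was highest in parental EFO-21 (mean 6.75) and Kuramochi (6.47), which did not differ beyond their spread (adjusted p = 0.158). It was 5.03 in OVSAHO and 3.92 in OV-90. In EFO-21 it was 6.80, 6.64 and 6.82 in parental and 7.77, 7.79 and 7.85 in resistant libraries. In Kuramochi it was 6.41, 6.48 and 6.51 against 7.22, 7.37 and 7.29. Both lines had every resistant library above every parental one. The change was 1.05 ± 0.06 in EFO-21 (SE, 3 against 3, limma adjusted p = 9.26e-05) and 0.83 ± 0.08 in Kuramochi (adjusted p = 0.000465, under 2-fold), and the EFO-21 value sat at the threshold, at 0.9998, when library 11 was left out. In OV-90 RIGI was 3.62 and 4.22 against 4.79, 4.64 and 4.41, without overlap, but the change of 0.69 ± 0.27 did not pass (adjusted p = 0.103). It passed with all 23 libraries in one fit (adjusted p = 0.000891) and without library 3 (0.99, adjusted p = 0.0335), and was 0.39 without library 2. In OVSAHO it was 4.81, 5.16 and 5.11 against 4.64, 4.71 and 4.89, and the groups overlapped (-0.28 ± 0.15, adjusted p = 0.200). The change in OVSAHO differed from that in each of the other lines (adjusted p of 0.00129 or lower), while Kuramochi, OV-90 and EFO-21 were not shown to differ among themselves (adjusted p between 0.151 and 0.597).

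IFIH1 (Gene ID 64135, chr2:163123584-163175194, minus strand) encodes MDA5, the helicase that binds long RNA duplexes. Among parental lines it was highest in EFO-21 (mean 6.90), then 5.07 in OVSAHO, 4.20 in OV-90 and 3.09 in Kuramochi, and each neighbour in that order differed (adjusted p of 0.00314 or lower). Kuramochi, which ranked near the top for RIGI, was lowest for IFIH1. In Kuramochi IFIH1 was 2.72, 3.19 and 3.37 in parental and 4.02, 4.33 and 4.22 in resistant libraries. In EFO-21 it was 6.92, 6.83 and 6.96 against 7.95, 8.03 and 8.08. In OVSAHO it was 5.11, 4.96 and 5.15 against 3.85, 3.80 and 3.89. The groups were separate in all 3 lines, upward in Kuramochi and EFO-21 and downward in OVSAHO.

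The IFIH1 changes were 1.10 ± 0.24 in Kuramochi, 1.12 ± 0.06 in EFO-21 and -1.23 ± 0.12 in OVSAHO (SE, 3 against 3 libraries, limma adjusted p = 0.0103, 6.25e-05 and 0.00134). Without library 4, parental, the Kuramochi change was 0.91, under 2-fold. In OV-90 IFIH1 was 4.06 and 4.33 against 4.58, 4.61 and 4.46, and the change of 0.35 ± 0.19 did not pass (adjusted p = 0.201). The change in OVSAHO differed from that in every other line (adjusted p of 1.96e-05 or lower), and Kuramochi and EFO-21 were not shown to differ (adjusted p = 0.950; difference -0.02 ± 0.20, SE). OVSAHO thus had a large fall of IFIH1 beside a rise of DDX60.

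DDX60 (Gene ID 55601, chr4:169137442-169240034, minus strand), an interferon-inducible helicase of the antiviral response, differed least between parental lines among the sensors. The parental means were 4.01 in EFO-21, 3.98 in Kuramochi and 3.91 in OV-90, which did not differ beyond their spread (adjusted p = 0.919 and 0.802 between neighbours), and 2.85 in OVSAHO, which was lower than OV-90 (adjusted p = 0.00279). In Kuramochi DDX60 was 4.13, 4.01 and 3.81 in parental and 5.40, 5.42 and 5.32 in resistant libraries. In EFO-21 it was 4.18, 3.91 and 3.94 against 5.45, 5.26 and 5.36, so that the 2 lines held nearly the same levels before and after. In OVSAHO it was 2.54, 2.90 and 3.10 against 3.69, 4.03 and 3.97. In OV-90 it was 3.71 and 4.11 against 4.35, 4.23 and 4.47. The groups did not overlap in any of the 4 lines.

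The DDX60 changes were 1.40 ± 0.16 in Kuramochi, 1.34 ± 0.14 in EFO-21, 1.05 ± 0.21 in OVSAHO and 0.44 ± 0.22 in OV-90 (SE), and the first 3 passed (limma adjusted p = 0.000798, 0.000675 and 0.0128), whereas OV-90 did not (adjusted p = 0.177, or 0.0478 with all 23 libraries in one fit). The OVSAHO call was lost without library 7 (0.90, under 2-fold) or library 20 (0.98, adjusted p = 0.0501). With the line as an additive term over all 23 libraries, DDX60 was 1.09 ± 0.12 higher in resistant libraries (adjusted p = 4.43e-06), and it was the 1 member of 10 past the 2-fold threshold there, against 6.09% of all genes. With the adjusted p alone 3 members passed this average, against 33% of all genes, the others being RIGI (0.57 ± 0.14, adjusted p = 0.00355) and IRF3 (-0.26 ± 0.09, adjusted p = 0.0280). DDX60L, a close copy next to DDX60, may share reads with it. DDX60L rose in Kuramochi (1.32 ± 0.17, adjusted p = 0.00122), passed the adjusted p alone in EFO-21 (0.68 ± 0.19, adjusted p = 0.0284) and had a change of 0.18 ± 0.21 in OVSAHO (adjusted p = 0.560), where DDX60 rose.

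**Figure D2:**
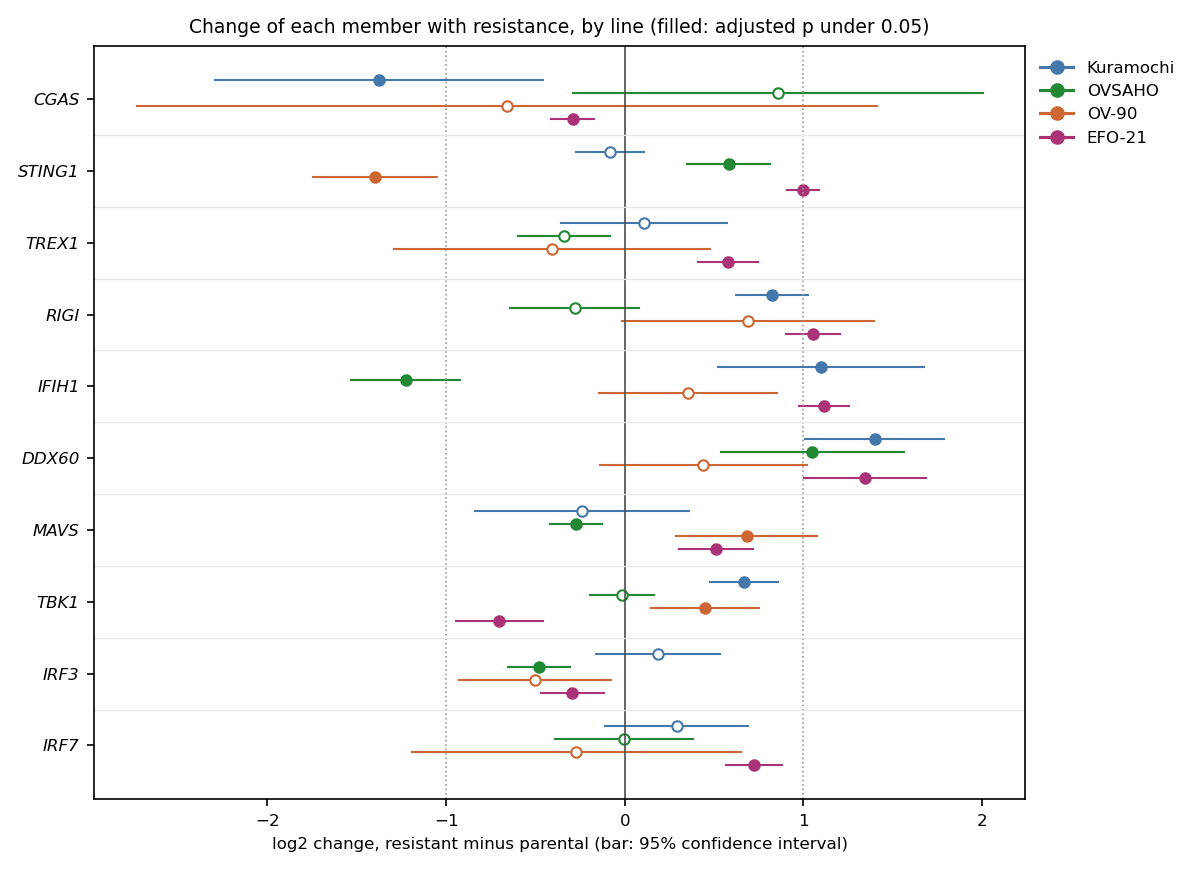
Log2 change, resistant minus parental, of each member in each line, with the 95% confidence interval of the limma fit as a bar, filled points where the adjusted p was under 0.05 and dotted lines at 2-fold. The DDX60 points lie above 0 in all 4 lines, though the interval in OV-90 reaches below 0, IFIH1 lies above 1 in Kuramochi and EFO-21 and below -1 in OVSAHO, and STING1 runs from -1.40 in OV-90 to 0.9985 in EFO-21.

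MAVS (Gene ID 57506, chr20:3827446-3856770, plus strand), the mitochondrial adaptor of RIG-I and MDA5, varied little between parental lines, from a mean of 7.16 in OV-90 to 7.97 in OVSAHO. OVSAHO was above EFO-21 (adjusted p = 0.0165), and the other 3 lines did not differ beyond their spread between neighbours (adjusted p = 0.676 and 0.820). With resistance MAVS was 6.998 and 7.32 against 7.80, 7.71 and 8.02 in OV-90, and 7.35, 7.25 and 7.37 against 8.004, 7.72 and 7.77 in EFO-21. The groups did not overlap in either line, and the changes of 0.68 ± 0.15 and 0.51 ± 0.08 passed the adjusted p (0.0312 and 0.00403) but not the 2-fold threshold. The OV-90 pass was lost without library 2, 13, 14 or 15 (adjusted p between 0.0733 and 0.105). In OVSAHO the change was -0.28 ± 0.06 (adjusted p = 0.0170, or 0.247 with all 23 libraries in one fit), which also missed without library 19 or 21 (adjusted p = 0.05002 and 0.0594), and in Kuramochi it was -0.24 ± 0.25 and did not pass (adjusted p = 0.463).

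TBK1 (Gene ID 29110, chr12:64845870-64895894, plus strand), the kinase on which both arms converge, had parental means between 6.38 in OV-90 and 7.13 in OVSAHO, with OVSAHO and EFO-21 not differing beyond their spread (adjusted p = 0.884). No change reached 2-fold, but the lines moved apart. In Kuramochi TBK1 was 6.92, 6.79 and 6.77 in parental and 7.44, 7.52 and 7.51 in resistant libraries. In EFO-21 it was 7.13, 7.12 and 7.08 against 6.20, 6.49 and 6.54. In OV-90 it was 6.26 and 6.50 against 6.80, 6.83 and 6.86. None of these groups overlapped, and the direction was upward in Kuramochi and OV-90 and downward in EFO-21. The changes were 0.67 ± 0.08 in Kuramochi, 0.45 ± 0.12 in OV-90 and -0.70 ± 0.10 in EFO-21 (SE, limma adjusted p = 0.000891, 0.0414 and 0.00224), while OVSAHO overlapped (-0.02 ± 0.07, adjusted p = 0.8999). The OV-90 pass was lost without library 13, 14 or 15 (adjusted p between 0.131 and 0.144). The change in EFO-21 differed from that in each other line (adjusted p of 0.000283 or lower). In EFO-21, then, TBK1 was lower in the same resistant libraries in which STING1, RIGI and IFIH1 were higher.

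IRF3 (Gene ID 3661, chr19:50162826-50169132, minus strand), a factor that TBK1 phosphorylates, was highest in parental OV-90 (mean 8.38), then 7.46 in Kuramochi and 7.37 in OVSAHO, which did not differ (adjusted p = 0.641), and lowest in EFO-21 (6.59). EFO-21, lowest here, was the line with the highest CGAS. In OVSAHO IRF3 was 7.46, 7.35 and 7.30 against 6.99, 6.84 and 6.84, and in EFO-21 6.49, 6.57 and 6.69 against 6.30, 6.31 and 6.26. Every resistant library was below the parental ones in both lines, with changes of -0.48 ± 0.07 and -0.29 ± 0.07 that passed the adjusted p alone (0.00454 and 0.0181). The EFO-21 pass was lost without library 12 or 24 and with all 23 libraries in one fit (adjusted p = 0.0566, 0.0557 and 0.0577). OV-90 had a change of -0.50 ± 0.16 (adjusted p = 0.0678, or 0.00402 with all 23 libraries in one fit, and 0.00715 without library 3) and Kuramochi one of 0.18 ± 0.14 (adjusted p = 0.328), which did not pass. Exons of IRF3 overlap those of BCL2L12 on the opposite strand.

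IRF7 (Gene ID 3665, chr11:612553-615983, minus strand), the interferon-inducible factor that amplifies the response, was near the floor of the measurement in OVSAHO. It was 0.41, 0.56 and 0.84 in parental and 0.50, 0.64 and 0.66 in resistant OVSAHO, all 6 among the lowest 10% of values of their library. The parental means of the other lines were 6.24 in EFO-21, 5.87 in OV-90 and 5.55 in Kuramochi, neighbours that did not differ beyond their spread (adjusted p = 0.289 and 0.372), and OVSAHO lay below each of them (adjusted p of 1.59e-07 or lower). With resistance IRF7 was 6.16, 6.25 and 6.33 against 6.95, 6.97 and 6.98 in EFO-21, without overlap (0.72 ± 0.06, adjusted p = 0.000409, under 2-fold). The changes in Kuramochi (0.29 ± 0.17), OV-90 (-0.27 ± 0.35) and OVSAHO (0.00 ± 0.16) did not pass, although the OV-90 change was -0.83 without library 3 (adjusted p = 0.0135) and 0.28 without library 2.

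Between parental lines, 8 of 10 members passed the F test with a range of at least 2-fold, against 79.7% of all genes, so the members did not vary between lines more often than genes at large. MAVS and TBK1 were those that did not reach it, with ranges of 0.81 and 0.75 between the highest and lowest line, while the median range over all genes was 2.01. CGAS, at 6.999, and IRF7, at 5.64, had the widest ranges. The test of whether the change with resistance differed between lines was passed by 4 of 10 members with a gap of at least 2-fold (STING1, IFIH1, TBK1 and RIGI), against 51.6% of all genes, and by 9 of 10 with the adjusted p alone, against 75.1%. CGAS was the member that did not pass (adjusted p = 0.0510).

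The other genes of the pathways were taken as 6 lists, whose shares are shown in the plot of lists by line. Of 16 further genes of DNA sensing and clearance measured, 2 rose and none fell in Kuramochi, 1 rose in OVSAHO, 2 rose and 2 fell in OV-90 and 1 rose in EFO-21. That was 12.5%, 6.25%, 25% and 6.25% of the list, against 22.5%, 7.76%, 16.1% and 14.3% of all genes in Kuramochi, OVSAHO, OV-90 and EFO-21. IFI16, a nuclear DNA sensor that acts with STING, rose in OVSAHO (2.02 ± 0.16, adjusted p = 0.000660) and fell in OV-90 (-2.11 ± 0.13, adjusted p = 0.00456), the directions in which STING1 lay in those lines. IFI16 neither rose nor fell past the threshold in Kuramochi or EFO-21, where STING1 changed by -0.08 and 0.9985. TREX2, a DNA exonuclease, rose in Kuramochi (2.11 ± 0.14), TRIM56, a ubiquitin ligase, in OV-90 (2.12 ± 0.50), and DNASE2, the lysosomal DNase, in EFO-21 (1.01 ± 0.04). SAMHD1, which hydrolyses deoxynucleotides, passed the adjusted p without 2-fold in OVSAHO (0.32), OV-90 (0.78) and EFO-21 (0.74), and was -0.31 in Kuramochi, which did not pass.

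Of 15 RNA-sensing genes, 2 rose and 1 fell in Kuramochi, 1 rose in OVSAHO, 3 rose in OV-90 and 1 rose in EFO-21. In the same order of lines that was 20%, 6.67%, 20% and 6.67% of the list, near or below the shares of all genes except in OV-90. TICAM1, the adaptor of TLR3, rose in Kuramochi (1.41 ± 0.15) and ZCCHC3, a cofactor of sensing, fell there (-1.59 ± 0.05). EIF2AK2, the kinase PKR, rose in OVSAHO (1.15 ± 0.11), ADAR, which edits RNA duplexes, in OV-90 (1.31 ± 0.30), and TLR3, the endosomal RNA receptor, in EFO-21 (1.13 ± 0.27). DHX58, which encodes the third helicase of the RIG-I family, was -0.85 ± 0.12 in EFO-21 (adjusted p = 0.00228, under 2-fold) and did not pass in the other lines.

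Of 16 genes of the adaptor, kinase and transcription factor step, 2 rose and 2 fell in Kuramochi, none passed in OVSAHO, and 1 fell in each of OV-90 and EFO-21. The shares of the list were 25%, 0%, 6.25% and 6.25%, above that of all genes in Kuramochi alone. IKBKE, a kinase related to TBK1, had a negative change in all 4 lines, with a fall in OV-90 (-1.05 ± 0.18, adjusted p = 0.0210), values past the adjusted p alone in OVSAHO (-0.40) and EFO-21 (-0.67), and -0.27 in Kuramochi, which did not pass. IKBKG rose (1.17 ± 0.16) and IRF5 fell (-1.34 ± 0.19) in Kuramochi, and NFKB1 fell in EFO-21 (-1.28 ± 0.08). IRF1 did not pass in any line, with changes from -0.15 to 0.22. Of 18 negative regulators, 3 rose and 1 fell in Kuramochi, 1 rose in OVSAHO, 1 fell in OV-90 and 2 rose in EFO-21, or 22.2%, 5.56%, 5.56% and 11.1% of the list, each below the share of all genes. NLRC5 rose (2.12 ± 0.17) and RNF26 fell (-1.03 ± 0.07) in Kuramochi. RNF125, a ubiquitin ligase for RIG-I, rose in OVSAHO (1.42 ± 0.13), USP18, which removes ISG15 from proteins, fell in OV-90 (-1.003 ± 0.227), and NLRC3 rose in EFO-21 (1.34 ± 0.16).

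**Figure D3:**
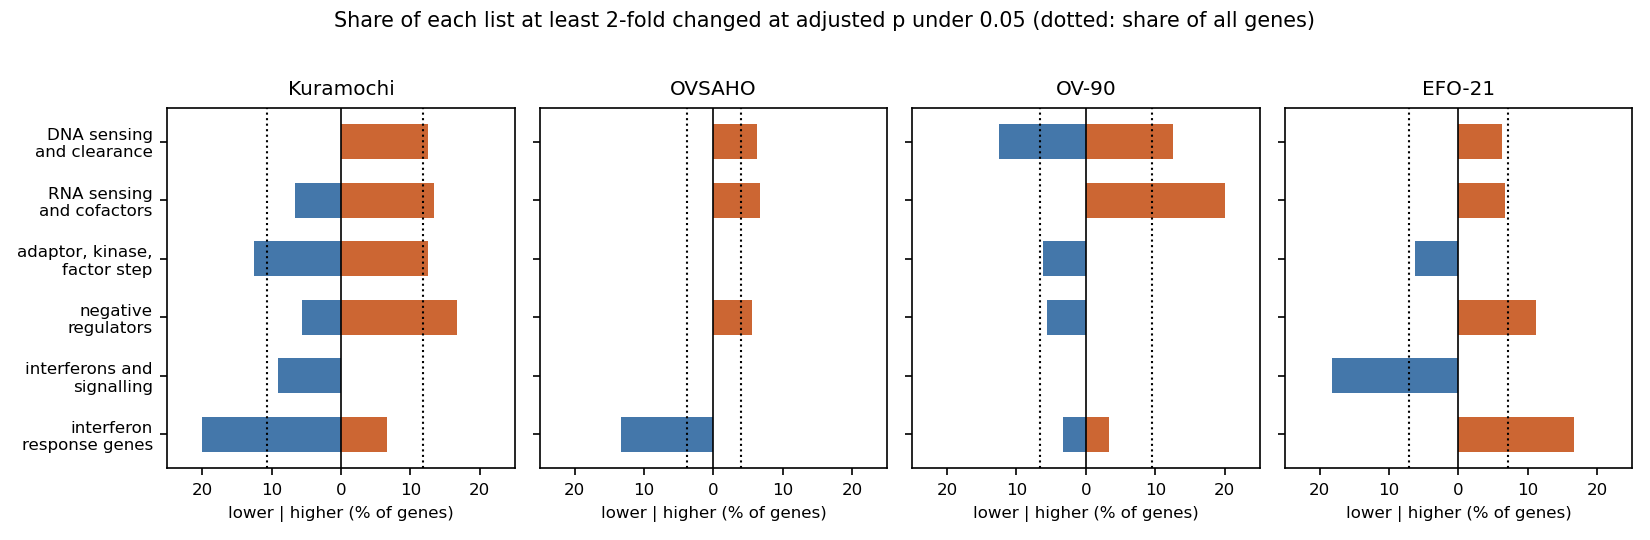
Percent of the measured genes of each of the 6 pathway lists that were at least 2-fold higher (orange, to the right) or lower (blue, to the left) in resistant libraries at adjusted p under 0.05, by line, with the shares of all genes as dotted lines. The interferon response genes extend to the left in Kuramochi and OVSAHO (6 and 4 of 30 genes) and to the right in EFO-21 (5 of 30).

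The output of the pathways was read in the interferon genes and their targets. Of 17 genes listed for the interferons, their receptors and signalling, 11 were measured. IFNB1, IFNA2, IFNK and IFNL1 to IFNL3 were not analysed here. IFNE, an interferon of epithelia, fell in Kuramochi (-1.88 ± 0.21, adjusted p = 0.000775) and EFO-21 (-4.13 ± 0.54, adjusted p = 0.00170). JAK1 also fell in EFO-21. Of the list 9.09% passed in Kuramochi and 18.2% in EFO-21, against 22.5% and 14.3% of all genes. No gene of the list passed in OVSAHO or OV-90, where 7.76% and 16.1% of all genes did. In EFO-21 STAT2 was -0.73 and IRF9 0.35, and IRF9 was -0.55 in OVSAHO, all past the adjusted p without 2-fold.

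Of 30 interferon response genes, 2 rose and 6 fell in Kuramochi, 4 fell and none rose in OVSAHO, 1 rose and 1 fell in OV-90, and 5 rose and none fell in EFO-21. That was 26.7%, 13.3%, 6.67% and 16.7% of the list, against 22.5%, 7.76%, 16.1% and 14.3% of all genes. The median change of the list was -0.09 in Kuramochi, -0.19 in OVSAHO, -0.36 in OV-90 and 0.49 in EFO-21. In EFO-21 IFI6, a mitochondrial interferon-induced protein, rose 3.62-fold (1.86 ± 0.09, adjusted p = 4.78e-05). ISG15, a ubiquitin-like modifier, also rose there, 2.15-fold (1.11 ± 0.04), but was listed with the negative regulators and not among these 30 genes. In Kuramochi BST2, the membrane tether of enveloped viruses, fell from 9.07 to 4.06 (-5.01 ± 0.17, adjusted p = 1.09e-05) and TRIM22 rose from 1.72 to 3.79 (2.07 ± 0.21). In OVSAHO CCL5, a chemokine, fell from 4.41 to 0.61 (-3.79 ± 0.69, adjusted p = 0.00970). The lowest 10% of values of a library ended between 1.70 and 1.87. The mean of CCL5 in resistant OVSAHO was below that and the mean of TRIM22 in parental Kuramochi was close to it, so both sizes are rough. In OV-90 IFI35 fell (-1.53 ± 0.27) and DTX3L rose (1.35 ± 0.32). RSAD2, which encodes the antiviral enzyme viperin, fell in Kuramochi (-1.29) and OVSAHO (-1.16) and passed the adjusted p upward without 2-fold in EFO-21 (0.93). By direction, 6 of 30 response genes fell in Kuramochi, where 10.6% of all genes fell, and 4 of 30 in OVSAHO, where 3.83% fell. In EFO-21 5 of 30 rose, where 7.11% of all genes rose. In OV-90 1 of 30 rose and 1 fell, where 9.5% and 6.56% of all genes did.

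**Figure D4:**
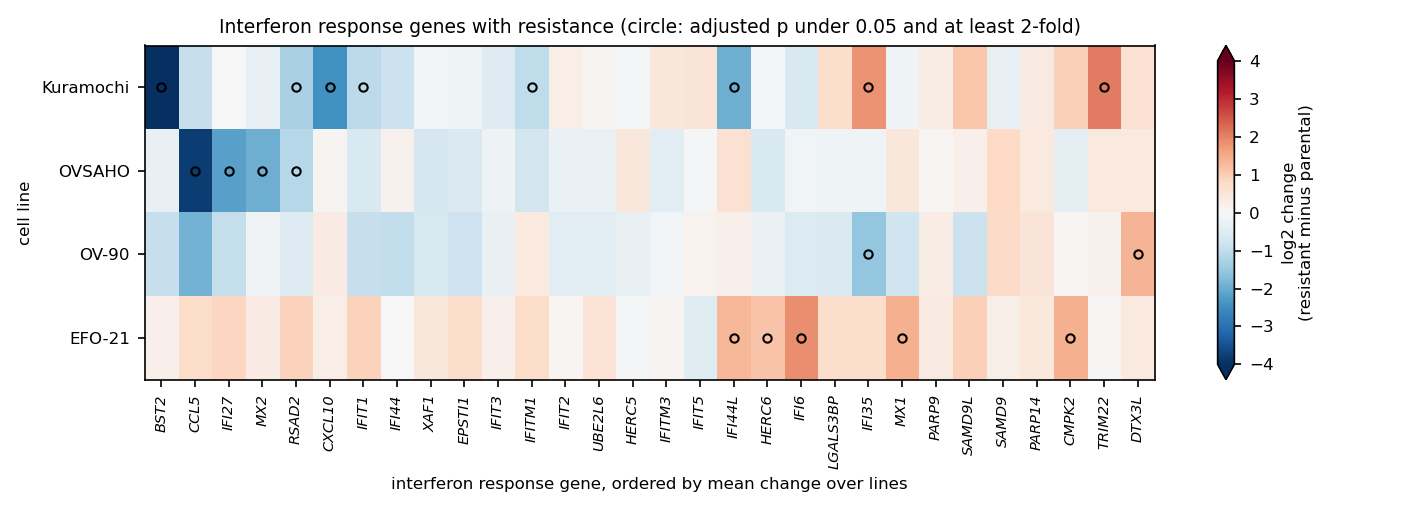
Log2 change, resistant minus parental, of the 30 interferon response genes (columns, ordered by mean change) in the 4 lines (rows), from blue (lower) to red (higher), with colours limited at 4 and circles where the change was at least 2-fold at adjusted p under 0.05. BST2 in Kuramochi (-5.01) and CCL5 in OVSAHO (-3.79, a rough value, as its resistant mean was near the floor) are the darkest blue cells. In EFO-21 the 5 circled genes are all red.

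Markers of other cells were read beside these results. Of 10 leukocyte markers 8 were measured, and their summed linear level was 98.2 to 201 in parental and 222 to 269 in resistant Kuramochi, 514 to 581 against 962 to 1029 in EFO-21, 270 to 404 against 127 to 139 in OVSAHO, and 3687 to 5554 against 5618 to 5849 in OV-90. The sum was thus higher in the lines where IFIH1 rose and lower in the line where it fell. PTPRC, the pan-leukocyte marker CD45, had a lower mean in the resistant than in the parental group of each line, at 2.98 against 1.93 in Kuramochi, 4.58 against 3.71 in EFO-21, 3.43 against 0.54 in OVSAHO and 3.76 against 2.60 in OV-90. CD68, a lysosomal protein that tumour cells can also express, had means of 4.18 in parental and 6.97 in resistant Kuramochi and of 8.45 and 9.72 in EFO-21. The summed level of 7 stroma and endothelium markers was 21.8 to 30.8 in parental and 192 to 231 in resistant OVSAHO, where LUM had means of 2.03 and 6.76 and DCN of 2.05 and 6.27. It was 4644 to 5110 against 3951 to 4237 in Kuramochi, 1102 to 1167 against 1240 to 1328 in EFO-21, and 5282 to 9648 against 4223 to 4643 in OV-90. The sum of 10 epithelial and ovarian carcinoma markers was lower in the resistant group of each line, at 8231 to 9839 against 4239 to 4439 in Kuramochi, 6355 to 6640 against 3132 to 3318 in OVSAHO, 10623 to 11122 against 7923 to 8148 in EFO-21 and 20642 to 23752 against 16035 to 16778 in OV-90. EPCAM had means of 6.47 in parental and 2.69 in resistant Kuramochi, and KRT19 of 8.58 and 4.62. A linear sum is carried by its highest markers, and single markers also went the other way. MSLN had means of 7.15 in parental and 9.24 in resistant EFO-21, and CDH1 of 4.65 and 6.03. In OV-90 CDH1 had means of 8.56 and 9.21. Markers with a mean above the median gene value numbered 7 in parental and 4 in resistant Kuramochi. They numbered 9 and 7 in OVSAHO, 5 and 5 in OV-90, and 6 and 8 in EFO-21. The part of such markers in the members' changes was not tested.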

How the data were processed

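The authors extracted total RNA, made stranded mRNA libraries, aligned the reads to GRCh37/hg19, summed the exon reads of repeat assays of a library, removed exons with few reads, and derived a value per gene from a robust linear model over its exons. The deposited gene values are on a log2 scale, and the authors had brought all 23 libraries to one distribution by quantile normalization. The deposited number of exons behind a gene and the exon weights, a score from the model, were not used in tests. Read totals were not in the table, so the depth per library is unknown and no counting interval is given. The column names give the line, its state and a library number (2 to 24), from which groups were formed, and hold no replicate number. There were 0 columns of other samples.

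Members were found by NCBI Gene ID; 95.8% of the 21658 genes had a symbol. Each line was fitted alone with limma (version 3.58.1, R 4.3.3), using moderated statistics with an intensity trend, two-sided, with Benjamini-Hochberg adjustment over all genes and no filter on low values. Parental lines were compared by an F test over 11 libraries. The difference of the change between lines was an F test in a fit of 8 groups, pairs of lines being contrasts adjusted over all genes, and the average change had the line as an additive term. A call needed an adjusted p under 0.05 and at least 2-fold. The scripts were tested on simulated data. The members and the lists were chosen with earlier results of these data known. All members are named. From each list, the text names the gene with the largest rise and the largest fall called in each line, genes called alike in at least 3 lines (there were none), RSAD2, JAK1 and DDX60L, chosen after their values were seen, and a fixed set of main genes; for 6 members, the 3 genes of most like pattern. Some genes that this rule takes are not reported here. Positions are from GENCODE v44 lifted to GRCh37, promoters from RefSeq (GRCh38.p14), placed in GRCh37 by exact match. Alternatives were no trend, a filter at the 25th percentile, recentred libraries, all 23 libraries in one fit, array weights, 1.5-fold or no fold threshold, and each library left out.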

Additional observations from a re-analysis of the deposited data

Results flagged for a closer look

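The change with resistance differed between lines for 4 of 10 members. They passed the F test of the difference with a gap of at least 2-fold between the highest and lowest line. Of all genes 51.6% passed the same test, so the members did not pass it more often than genes at large. The gap was 2.40 on the log2 scale for STING1 (highest in EFO-21, lowest in OV-90, limma adjusted p = 2.33e-11), 2.34 for IFIH1 (highest in EFO-21, lowest in OVSAHO, adjusted p = 1.80e-08), 1.37 for TBK1 (highest in Kuramochi, lowest in EFO-21, adjusted p = 1.04e-07) and 1.33 for RIGI (highest in EFO-21, lowest in OVSAHO, adjusted p = 3.28e-05). The median gap over all genes was 1.25.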

How the results depend on the processing

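No paired analysis was possible because the columns carry no replicate number that ties a parental to a resistant library. Shares of all genes were not taken at 1.5-fold, with all 23 libraries in one fit or with libraries left out. Member counts under those settings thus have no background beside them. With the threshold at 1.5-fold, 4 members were higher in Kuramochi, 1 in OV-90 and 5 in EFO-21, 1 was lower in EFO-21, and 9 differed between lines. With no fold threshold, 4 were higher in Kuramochi, 2 higher and 3 lower in OVSAHO, 2 higher in OV-90, 7 higher and 3 lower in EFO-21, 9 differed between lines, and 2 were higher and 1 lower on average. Leaving out each library in turn gave 1 to 2 members higher and 0 to 1 lower in Kuramochi, 0 to 1 higher in OVSAHO, 0 to 1 lower in OV-90, 2 to 4 higher in EFO-21 and 4 to 7 that differed between lines, the 7 arising without OV-90 library 2, 3, 14 or 15. In EFO-21 these counts moved as RIGI and STING1 crossed the 2-fold threshold. Where leaving out a library left parental OV-90 with 1, that library was assumed to vary like the other groups. Changes that turned in sign when a library was left out had not passed with all libraries: IRF7 in OV-90 (-0.83 to 0.28), CGAS in OV-90 (-1.67 to 0.35), TREX1 in Kuramochi (-0.0394 to 0.252), MAVS in Kuramochi (-0.414 to 0.0367), TBK1 in OVSAHO (-0.0714 to 0.0457) and IRF7 in OVSAHO (-0.10 to 0.11). A fit without trend, the filter on low values, recentred libraries, all 23 libraries in one fit and array weights, where run, turned no direction and moved no count at the 2-fold threshold by over 1.5 times. At the adjusted p alone, all 23 libraries in one fit moved the count from 3 to 6 in OV-90, 5 to 4 in OVSAHO and 10 to 8 in EFO-21, and leaving out libraries gave 0 to 6 in OV-90, 4 to 6 in OVSAHO, 4 to 5 in Kuramochi and 9 to 10 in EFO-21.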

Other observations

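Among the genes of most like pattern over the 8 group means, CGAS was like WRNIP1 and TBC1D3P1-DHX40P1 (Pearson r of 0.988 and 0.985), STING1 like the gene with NCBI Gene ID 392490, ELP3 and PLXND1 (0.994, 0.979 and 0.979), and IRF7 like DYNC1I2, TGFB1I1 and SCAMP2 (0.993, 0.992 and 0.991). RIGI was like NOG, DUSP14 and DZIP3 (0.981, 0.980 and 0.977), IFIH1 like C18orf32 and NAP1L2 (0.969 and 0.955), and DDX60 like PLEKHM2, GPSM1 and ABHD15 (0.953, 0.950 and 0.950). The search ran over the 10829 genes with a mean above the median of all genes, and with 8 group means from 4 lines and so many genes, values this high are a description only. Among the members themselves, CGAS and STING1 had r = 0.891, STING1 and RIGI 0.869, CGAS and IFIH1 0.815, and CGAS and IRF3 -0.790, over the same 8 group means, in which the parental and resistant group of a line share their line.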
